A study of Mus musculus with 12 samples.

Results

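Cxcr2, Cxcr4, Ccr1, Ccr2 and Cx3cr1 encode 5 chemokine receptors that guide myeloid cells between blood, bone marrow and tissue. They were taken by symbol from a gene expression table of 24454 genes, and all 5 were measured in AML blasts from spleen (SP) and bone marrow (BM). The blasts were fetal liver cells from wildtype (WT) or STAT3β-deficient (Δβ) mice that carried the MLL-AF9 fusion oncogene and a Venus reporter from a retroviral vector. STAT3β is the shorter splice isoform of the transcription factor STAT3, and the Δβ cells still make the long isoform STAT3α. The transformed cells were injected into the tail vein of male immunodeficient NSG mice (NOD.Cg-Prkdc scid Il2rg tm1Wjl/SzJ) aged 6 to 8 weeks, and Venus-positive cells were sorted from diseased recipients. There were 4 groups of 3 libraries: WT SP, Δβ SP, WT BM and Δβ BM. All 4 groups thus share the MLL-AF9 oncogene, the NSG host and the diseased end point. NSG mice lack mature lymphocytes and NK cells but keep their own myeloid and stromal cells, and these would reach a library only past the Venus gate. The sources do not say whether the SP and BM libraries of 1 number come from the same mouse, nor how many separately transformed cell pools were injected. P-values therefore measure the spread between these libraries.

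Chemokine receptors are G protein-coupled receptors that sense gradients of small secreted proteins, the chemokines. Ligand binding releases Gαi and Gβγ subunits, which activate PI3Kγ and Rac-driven actin assembly, and the receptor is then silenced by GRK kinases and arrestins. In myeloid cells the receptors have distinct tasks. Cxcr4 binds Cxcl12 made by marrow stroma and holds stem cells and immature myeloid cells in the marrow. Cxcr2 binds Cxcl1, Cxcl2 and related ligands and draws neutrophils out into blood and inflamed tissue. Ccr2 binds Ccl2 and related ligands and lets classical Ly6C-high monocytes leave the marrow. Ccr1 binds Ccl3, Ccl5, Ccl6 and Ccl9 on monocytes, macrophages and granulocytes. Cx3cr1 binds the membrane-anchored chemokine Cx3cl1 and is highest on patrolling Ly6C-low monocytes.

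The 5 receptors lie on 2 chromosomes. On the GRCm38 build, the GENCODE transcript matched to the RefSeq accession of each row placed Cxcr2 (NM_009909) at chr1:74153991-74161246 on the plus strand and Cxcr4 (NM_009911) at chr1:128588199-128592290 on the minus strand. Ccr1 (NM_009912) lies at chr9:123962124-123968692 on the minus strand and Ccr2 (NM_009915) at chr9:124102183-124108550 on the plus strand. Cx3cr1 (NM_009987) lies at chr9:120048683-120068296 on the minus strand. The matched transcript has 3 exons for Ccr2 and 2 for each of the other 4. All values are counts over all exons of a gene, so they do not separate isoforms, and reads could be shared between receptors of similar sequence.

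Start-site windows of 300 bases from RefSeq (GRCm38.p6) are shown for 2 receptors, Cxcr4, which was the most even of the 5 across libraries, and Cx3cr1, the one whose SP groups did not overlap. The Cxcr4 window is chr1:128592250-128592549 and the Cx3cr1 window is chr9:120068247-120068546, both read on the minus strand from 5′ to 3′. Capitals mark matches to TATAAA or CCAAT on either strand, which overlap in Cxcr4 where TATAAA was met on both strands.
Cxcr4: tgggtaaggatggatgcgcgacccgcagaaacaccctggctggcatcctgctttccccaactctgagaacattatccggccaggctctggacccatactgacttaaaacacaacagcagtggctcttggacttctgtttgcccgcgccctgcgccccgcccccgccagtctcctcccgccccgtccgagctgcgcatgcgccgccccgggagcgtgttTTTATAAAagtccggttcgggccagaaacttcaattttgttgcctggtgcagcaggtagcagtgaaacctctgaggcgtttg
Cx3cr1: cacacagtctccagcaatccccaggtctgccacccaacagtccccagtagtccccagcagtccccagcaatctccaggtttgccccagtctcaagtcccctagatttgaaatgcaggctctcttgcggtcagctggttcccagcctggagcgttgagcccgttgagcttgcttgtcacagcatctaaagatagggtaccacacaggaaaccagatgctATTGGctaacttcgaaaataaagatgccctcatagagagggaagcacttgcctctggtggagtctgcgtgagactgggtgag

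The Cxcr4 window holds 20 CpG dinucleotides and the Cx3cr1 window 5, beside a median of 7 over the 32851 windows of the RefSeq table. TATAAA, which 13.6% of those windows hold, was met only in Cxcr4 among the 5 receptors. CCAAT, held by 37.4% of windows, was met in Cxcr2 and Cx3cr1, and the GATA motif AGATAA, held by 11.2%, in Ccr2. None of the 5 windows holds the STAT motif TTCNNNGAA, which 8.30% of windows hold, or the core of the interferon-stimulated response element, which 3.44% hold. The letters of a PU.1 motif (GAGGAAG, 13.6% of windows) and a C/EBP motif (TTGCNNAA, 10.8%) were likewise not met in the 5 windows. A match describes the letters of the window and is not a measured binding site.

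Read counts on genes ranged from 9001051 to 13859727 per library, and each value below is a count divided by the size factor of its library, called a normalized count. The Stat3 row ranged from 2349 to 4430 normalized counts over the 12 libraries, and it sums both isoforms, so it does not check the genotype. The blast markers Hoxa9 (798 to 3410 normalized counts) and Meis1 (516 to 1757) were present in every library. The WT SP libraries were the least alike: the log2 values of replicates 1 and 3 correlated at r = 0.897 across genes, which are not independent replicates, and all other pairs within a group reached at least 0.929. WT SP replicate 1 had the lowest median correlation with the other 11 libraries, 0.904, beside 0.952 for WT SP replicate 3 and 0.943 to 0.958 for all libraries but replicate 1. The median within-group SD was 0.31 log2 units in WT SP and 0.17 to 0.24 in the other groups. Values without 1 WT SP library at a time stand beside the results below.

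Per length of transcript, Cxcr4 was the most abundant of the receptors in 12 of 12 libraries. Its level ranged from 1692 to 3351 normalized counts per kilobase, with a median of 2405. Ccr2 followed with a median of 812 per kilobase, then Ccr1 with 431, Cx3cr1 with 254 and Cxcr2 with 99.0. Ccr2 was above Ccr1 in 12 of 12 libraries, although the ratio of the 2 levels came down to 1.03 in one of them. Ccr1 and Cx3cr1 are neighbours whose order changed: Ccr1 was higher in 8 of 12 libraries. Cx3cr1 exceeded Cxcr2 in 11 of 12. The order of Ccr1 and Ccr2 depends on the length used, since with all annotated exons of each gene merged (6760 bases for Ccr2 and 2833 for Ccr1) the medians were 431 for Ccr1 and 360 for Ccr2. As normalized counts, the mean of Cxcr4 lay at percentile 97.0 of all tested genes, Ccr2 at 93.1, Cx3cr1 at 83.3, Ccr1 at 80.2 and Cxcr2 at 45.7.

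**Figure D1:**
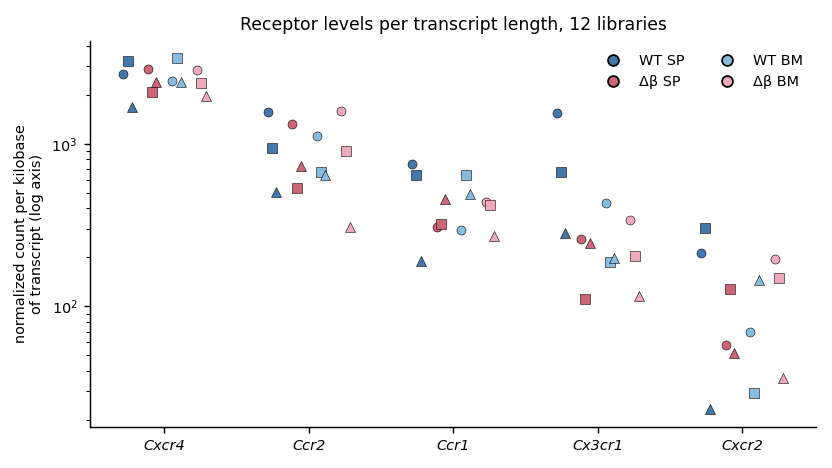
Level of each receptor in each library as normalized count per kilobase of transcript on a log axis, with colours for the 4 groups and shapes (circle, square, triangle) for replicates 1, 2 and 3. Cxcr4 lies highest in every library with a median of 2405 per kilobase, and Cxcr2 has the lowest median, 99.0.

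The question of the genotype comparison was whether blasts without STAT3β carry other amounts of these receptors, and that of the organ comparison whether blasts of one genotype differ between SP and BM. Tests used limma on log2(normalized count + 1) over 11476 genes with a mean of at least 10, and a gene was called at a Benjamini-Hochberg adjusted p under 0.05. None of the 5 receptors was called between Δβ SP and WT SP, where 12 genes (0.105%) were. Between Δβ BM and WT BM none was called either, beside 8 genes (0.0697%), and over both organs none, beside 17 genes (0.148%). In the organ comparisons within WT, within Δβ and over both genotypes, and in the test of whether the genotype difference itself differed between organs, limma called 0 of all genes tested (0.00%).

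Before adjustment, 1 of the 5 receptors, Cx3cr1, had p under 0.05 in the genotype comparison in SP, as did 1708 of all genes tested, and the same receptor in the organ comparison in WT, as did 949. In the other comparisons limma gave 0 receptors at that level, with 297 genes for genotype in BM, 1137 for genotype over both organs, 203 for organ in Δβ, 661 for organ over both genotypes and 367 for the difference between organs. edgeR's quasi-likelihood test called 0 of the receptors in all 7 comparisons. DESeq2 called 1, Cx3cr1 in SP, and 0 in the other 6. DESeq2 called more genes in all: 457 (3.99%) for genotype in SP, 37 in BM and 422 (3.68%) over both organs, 111 (0.969%) for organ in WT, 2 for organ in Δβ, 37 (0.323%) for organ over both genotypes and 3 for the difference between organs. edgeR called 4 (0.0349%) for genotype in SP, 8 in BM, 16 (0.139%) over both organs and 0 in each of the other 4.

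**Figure D2:**
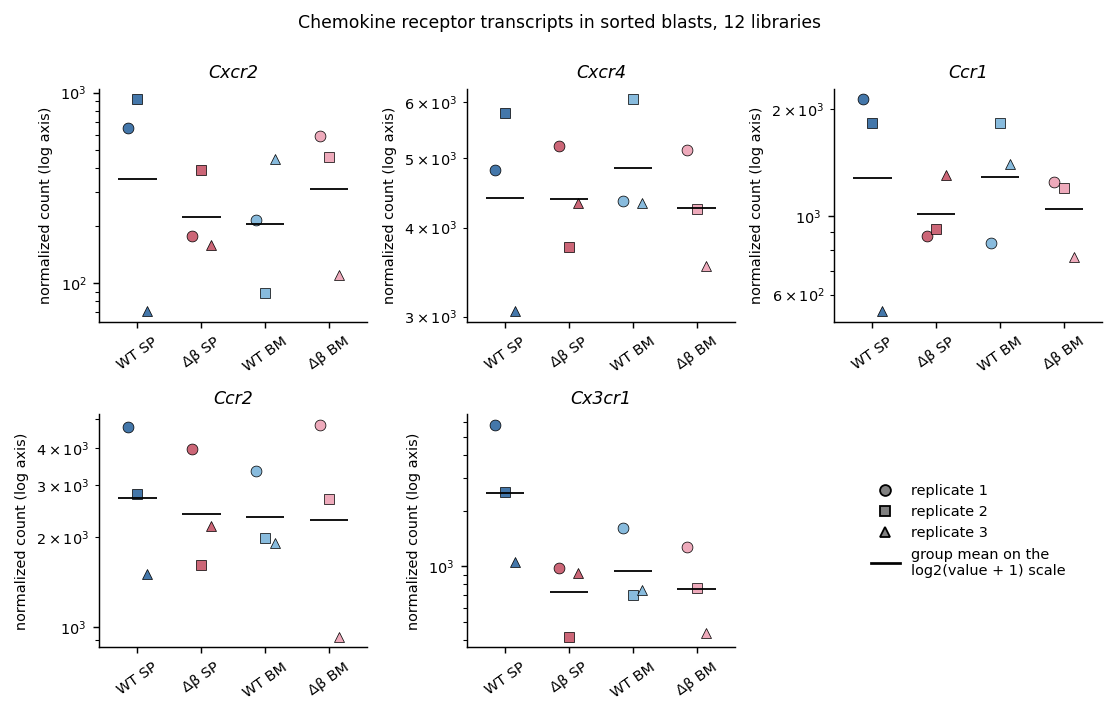
Normalized counts of the 5 receptors on log axes, 1 point per library, with shapes for replicates and a bar at the mean of the 3 libraries on the log2(value + 1) scale. Only the Cx3cr1 panel shows SP groups that do not overlap, with Δβ SP at 417 to 980 and WT SP at 1053 to 5801.

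Cxcr4, the marrow retention receptor, was the most even of the 5. Its normalized counts were 4817, 5788 and 3054 in WT SP and 5206, 3754 and 4328 in Δβ SP. In BM they were 4355, 6048 and 4327 in WT and 5140, 4243 and 3535 in Δβ. The highest library, WT BM replicate 2, exceeded the lowest, WT SP replicate 3, by 1.98-fold, and all groups overlapped. The SP means were 4553 ± 1386 (SD, n = 3) for WT and 4429 ± 731 for Δβ, and the BM means 4910 ± 986 and 4306 ± 804. On the log2 scale Δβ minus WT was -0.00 in SP (SE 0.24, 95% interval -0.54 to 0.53) and -0.19 in BM (SE 0.24, interval -0.73 to 0.35). SP minus BM was -0.14 in WT (interval -0.68 to 0.40) and 0.04 in Δβ (interval -0.49 to 0.58). The limma adjusted p values of these 4 differences lay between 0.874 and 0.99997. No interval reaches a 2-fold difference, which is 1 on this scale, although the sign in SP changed with the scaling (0.06 after TMM rescaling and 0.18 after quantile normalization) and with the WT SP library left out (0.06, 0.19 and -0.27 without replicates 1, 2 and 3). The genes closest to Cxcr4 over the 12 libraries were Ogt (r = 0.916), an enzyme that attaches sugar to nuclear proteins, Znfx1 (0.915) and Fam78b (0.906).

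Cxcl12, the ligand of Cxcr4, was near the detection floor of 3 reads. The WT blasts gave 2.28, 1.06 and 1.01 normalized counts in SP and 33.7, 13.5 and 8.06 in BM. The Δβ blasts gave 3.88, 3.36 and 0 in SP and 6.52, 3.50 and 9.32 in BM. WT BM lay above WT SP in all libraries, and the Δβ groups overlapped. Among tested genes 11.5% had no overlap between WT SP and WT BM in either direction. Its mean was below the minimum for testing, and in the fit without that minimum SP minus BM over both genotypes was -2.07 (SE 0.49) with a limma adjusted p of 0.656. Ackr3, a second receptor for Cxcl12 that scavenges it, is listed at 0 in all 12 libraries.

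Cxcr2, the neutrophil recruitment receptor, was the least abundant and varied within each group. Normalized counts were 652, 920 and 71.0 in WT SP, and 176, 390 and 158 in Δβ SP. In BM they were 213, 89.0 and 445 in WT and 591, 457 and 110 in Δβ. WT SP thus held both the highest and the lowest of the 12 libraries, 12.9-fold apart, and no comparison separated its groups. Δβ minus WT was -0.66 in SP (SE 0.96) and 0.60 in BM (SE 0.96) on the log2 scale, with limma adjusted p values of 0.743 and 0.99997. The intervals are wide, from -2.78 to 1.46 in SP and from -1.52 to 2.72 in BM. SP minus BM was 0.78 in WT (SE 0.96) and -0.48 in Δβ (SE 0.96). Without WT SP replicate 3 the SP genotype difference was -1.80 (SE 0.77, limma adjusted p = 0.128) and the WT organ difference 1.92 (adjusted p = 0.154). Without replicate 1 they were -0.21 and 0.33, and without replicate 2 they were 0.04 and 0.08, so both sizes depend on which WT SP library is left out.

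The genes whose log2 values followed Cxcr2 most closely over the 12 libraries were Plbd1 (Pearson r = 0.947), Tlr5 (0.943), a receptor for bacterial flagellin, and G0s2 (0.922), a lipase inhibitor. Plbd1 values were 2303, 2395 and 174 in WT SP, and WT SP replicate 3 was again the lowest library. Late neutrophil genes were read as a list of 14, all of which had lower estimates in Δβ SP than in WT SP. Their median was -1.20 beside -0.01 over all tested genes. Limma called none of them, with 5 at unadjusted p under 0.05, beside 1708 of the 11476 tested genes. edgeR called 0 of the 14 there and DESeq2 2, Padi4 and Retnlg, beside 3.99% of all genes. Over both organs edgeR called Retnlg, beside 0.139% of all genes, and DESeq2 9 of the 14, all lower in Δβ, beside 3.68%. Without WT SP replicates 1, 2 and 3 in turn the median in SP was -0.94, -0.82 and -2.05, and limma called 0, 0 and 7 of the 14. The 7 were lower in Δβ SP, beside 11.7% of all genes called lower without replicate 3. The summed level of the list was 147066 to 361263 normalized counts in WT SP and 99872 to 122601 in Δβ SP, without overlap. In BM it was 148893 to 423744 for WT and 119083 to 245430 for Δβ. S100a8, a calcium-binding protein of neutrophils, was at 40977, 70767 and 35913 in WT SP and 23059, 19009 and 21251 in Δβ SP. The part of neutrophil-type transcripts in the Cxcr2 values was not tested.

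Among the ligands of Cxcr2, Cxcl2 varied most. The WT blasts carried 2186, 657 and 226 normalized counts in SP and 4.96, 5.63 and 193 in BM. The Δβ blasts carried 55.03, 318 and 34.2 in SP and 200.05, 63.1 and 59.0 in BM. WT SP lay above WT BM in every library, and the other groups overlapped. Of all tested genes 11.5% had no overlap between WT SP and WT BM in either direction. The WT organ difference was 5.13 (SE 1.34, limma adjusted p = 0.531). It was 4.29 and 5.16 without WT SP replicates 1 and 2, not called, and 5.93 without replicate 3, where limma called it (adjusted p = 0.0454). That last fit called 598 of the 11476 tested genes, 486 of them higher in WT SP. Cxcl1 reached 26.2 in WT SP replicate 1 and at most 4.06 elsewhere, and Cxcl5, Cxcl15, Ppbp and Cxcl3 stayed under 3 reads in all libraries.

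Ccr1 showed a narrower spread than Cxcr2. WT blasts had 2127, 1823 and 539 normalized counts in SP and 836, 1823 and 1395 in BM. Δβ blasts had 875, 915 and 1304 in SP and 1248, 1195 and 766 in BM. The lowest library was once more WT SP replicate 3, and the groups overlapped in every comparison. Δβ minus WT was -0.33 in SP (SE 0.47, interval -1.37 to 0.70) and -0.30 in BM (SE 0.47, interval -1.33 to 0.73), and -0.32 over both organs (SE 0.25, limma adjusted p = 0.686). SP minus BM was -0.01 in WT and -0.04 in Δβ, both with SE 0.47. Without WT SP replicate 3 the SP genotype difference of Ccr1 was -0.96 (SE 0.32, limma adjusted p = 0.0659), without WT SP replicate 1 it was 0.03 and without replicate 2 it was -0.08. The genes closest to Ccr1 over the 12 libraries were Bmx (r = 0.961), a Tec-family kinase of myeloid cells, BC117090 (0.945) and Ugt1a7c (0.926).

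The chemokines that bind Ccr1 were among the more abundant ligands. Ccl6 in WT blasts was at 6828, 2865 and 420 normalized counts in SP and 895, 733 and 1264 in BM. In Δβ blasts it was at 753, 446 and 497 in SP and 1636, 859 and 396 in BM. Its SP genotype difference of -1.87 (SE 0.83) was not called by limma (adjusted p = 0.329). It was called by DESeq2, beside 3.99% of all genes. Without WT SP replicate 1 the Ccl6 difference was -0.99 (limma adjusted p = 0.753) and without replicate 2 it was -1.62. Without replicate 3 it was -3.004 and called (limma adjusted p = 0.0121), beside 11.7% of all genes called lower. Ccl9 was at 2304, 1770 and 710 in WT SP and 907, 296 and 779 in Δβ SP, and Ccl3 at 512, 885 and 295 against 133, 356 and 243. The SP differences were -1.26 for Ccl9 (SE 0.61) and -1.17 for Ccl3 (SE 0.67), and the groups of each overlapped. Ccl5 was low in most libraries, with at most 12.8 outside the first replicates of Δβ SP (46.5) and Δβ BM (64.1).

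Ccr2, the marrow exit receptor of classical monocytes, had wide spreads within groups. Normalized counts were 4702, 2807 and 1509 in WT SP and 3971, 1613 and 2179 in Δβ SP. In BM they were 3343, 1996 and 1917 in WT and 4782, 2690 and 925 in Δβ. Replicate 1 was the highest library of each of the 4 groups. Δβ minus WT was -0.17 in SP (SE 0.59, interval -1.46 to 1.12) and -0.03 in BM (SE 0.59, interval -1.32 to 1.26), with limma adjusted p values of 0.902 and 0.99997. SP minus BM was 0.21 in WT (SE 0.59) and 0.08 in Δβ (SE 0.59). The sign of the Ccr2 difference in BM was not stable, at 0.21 by edgeR and 0.20 by DESeq2. In SP the difference was 0.23, -0.15 and -0.59 without WT SP replicates 1, 2 and 3.

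Genes that followed Ccr2 most closely were Dock10 (r = 0.954), a guanine nucleotide exchange factor, Bfar (0.930) and Gm5431 (0.927). Ccl2, the main ligand of Ccr2, was at 279, 114 and 76.1 normalized counts in WT and 19.4, 53.8 and 14.9 in Δβ in the SP libraries. The BM libraries gave 17.9, 13.5 and 84.6 for WT and 33.7, 26.9 and 3.11 for Δβ. All Δβ SP libraries were below all WT SP libraries, as in 9.37% of tested genes. The Ccl2 difference in SP was -2.38 (SE 0.92, limma adjusted p = 0.286), and over both organs -1.62 (SE 0.60, adjusted p = 0.458). Over both organs DESeq2 called Ccl2, beside 3.68% of all genes. Ccl8 and Ccl12, further Ccr2 ligands, are listed at 0 in every library.

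Cx3cr1 was the one receptor of the 5 whose SP groups did not overlap. Normalized counts were 5801, 2517 and 1053 in WT SP and 980, 417 and 927 in Δβ SP. In BM they were 1610, 698 and 747 in WT and 1275, 760 and 437 in Δβ. Every Δβ SP library lay below every WT SP library, which 9.37% of tested genes also showed (17.3% in either direction), and the nearest pair, 1053 and 980, lay close together. In the other 3 comparisons no receptor had groups without overlap, beside 7.63% of tested genes for genotype in BM, 11.5% for organ in WT and 7.42% for organ in Δβ. Means in SP were 3124 ± 2431 (SD, n = 3) for WT and 774 ± 311 for Δβ, and in BM 1019 ± 513 and 824 ± 423. WT SP was thus both the highest group and the one with the widest spread.

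On the log2 scale Cx3cr1 was lower in Δβ SP than in WT SP by an estimate of -1.78 (SE 0.61, interval -3.13 to -0.43), a 3.44-fold difference that limma did not call (adjusted p = 0.258, rank 644 of 11476 by p). In BM the difference was -0.33 (SE 0.61, interval -1.68 to 1.02, adjusted p = 0.99997). The difference between these 2 genotype effects was -1.45 (SE 0.87, adjusted p = 0.926), so an effect particular to SP was not shown. Over both organs Δβ minus WT was -1.05 (SE 0.47, adjusted p = 0.515). WT SP exceeded WT BM by 1.40 (SE 0.61, adjusted p = 0.600) and Δβ SP differed from Δβ BM by -0.05 (SE 0.61, adjusted p = 0.99996). The contrasts that use WT SP share its 3 libraries.

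**Figure D3:**
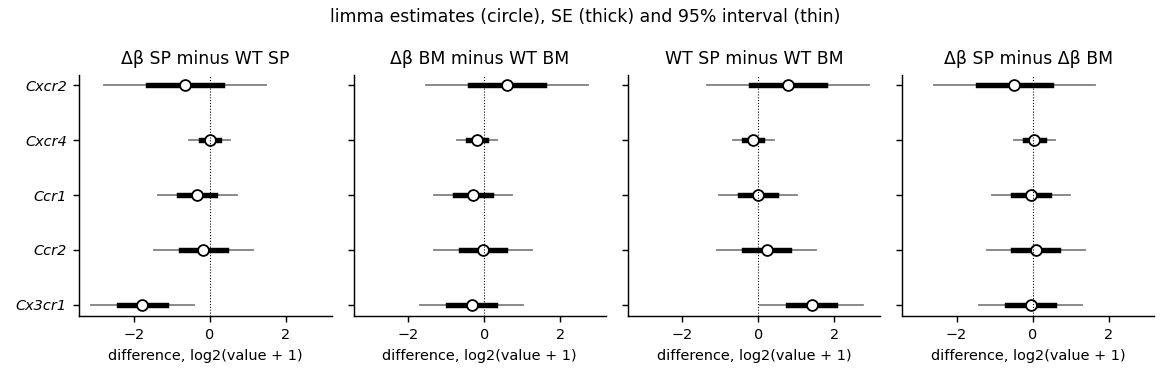
Differences of the 5 receptors on the log2(value + 1) scale for genotype in SP, genotype in BM, organ in WT and organ in Δβ, with circles for limma estimates, thick bars for the SE and thin bars for the 95% interval. The Cx3cr1 estimate of -1.78 in SP lies farthest from 0, and the Cxcr4 intervals are the narrowest.

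The Cx3cr1 difference in SP was called under some settings and not under others. DESeq2 gave -1.99 with an adjusted p of 0.0228, and edgeR -1.97 with 0.206. Without WT SP replicate 1, the library with the highest Cx3cr1 value and the least like the other libraries, limma gave -1.17 (SE 0.57, adjusted p = 0.606). Without replicate 2 it gave -1.77 (SE 0.72, adjusted p = 0.540), and without replicate 3 it gave -2.40 (SE 0.56, adjusted p = 0.0218). The last exclusion moved the whole comparison, from 12 genes called to 1884, of which 1345 (11.7% of those tested) were lower in Δβ SP, whereas 9 and 4 genes were called without replicates 1 and 2. Over all settings with all libraries the adjusted p ran from 0.0228 to 0.432, and with 1 SP library left out from 0.0218 to 0.619. The sign was negative under each of these. For the organ difference in WT, leaving out WT SP replicate 3 gave 2.02 (SE 0.56, adjusted p = 0.0611) and leaving out replicate 1 gave 0.79 (adjusted p = 0.999).

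**Figure D4:**
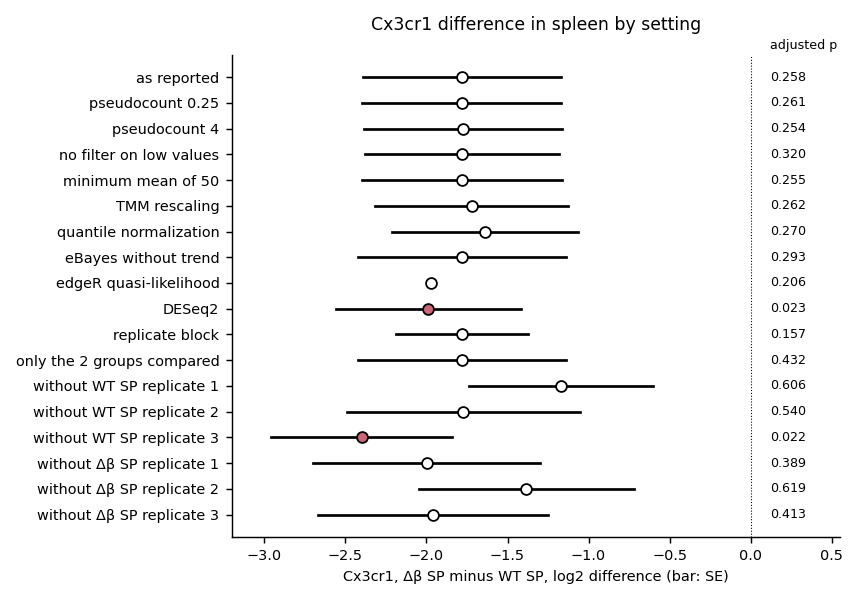
Cx3cr1 difference between Δβ SP and WT SP on the log2 scale under each setting, with SE bars (none for edgeR, which gives no SE) and adjusted p values printed at the right, and filled circles where the adjusted p was under 0.05. The filled circles are DESeq2 at -1.99 and the fit without WT SP replicate 3 at -2.40.

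The genes closest to Cx3cr1 over the 12 libraries were Ubash3b (r = 0.975), a phosphatase, Rbpms (0.968), an RNA-binding protein, and P2ry6 (0.967), a receptor for UDP. Rbpms was at 362, 111 and 35.5 normalized counts in WT SP and 28.7, 5.601 and 12.8 in Δβ SP. P2ry6 was at 1020, 301 and 97.4 against 138, 77.3 and 152. WT SP replicate 1 was the highest library for all 3 genes, as it was for Cx3cr1. The correlations run over libraries of all 4 groups, so that group differences and the spread within groups both enter them.

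A list of 15 monocyte markers was read beside Cx3cr1. In Δβ SP against WT SP 12 of the 15 were lower, with a median of -1.11. Limma called none, with 7 at unadjusted p under 0.05 beside 1708 of the 11476 tested genes. edgeR called 0 and DESeq2 7, beside 3.99% of all genes. Without WT SP replicates 1, 2 and 3 in turn 12, 12 and 13 were lower, with medians of -0.76, -0.88 and -1.95, and limma called 0, 0 and 9. The 9 were lower in Δβ SP, beside 11.7% of all genes called lower without replicate 3. The summed level of the list was 136200, 95238 and 37498 normalized counts in WT SP, and 56334, 34727 and 45129 in Δβ SP, with overlap. In BM it ran from 54770 to 73575 in WT and from 38395 to 57481 in Δβ. Of the 4 most abundant markers, Fn1 (fibronectin) differed by -1.89 (SE 0.83) in SP, Spn by -0.32 (SE 0.15), F13a1 by -0.26 (SE 0.51) and Ly6c2 by 0.43 (SE 0.25), none of them called. Of these 4, Fn1 was called without WT SP replicate 3 (-2.88, limma adjusted p = 0.0203).

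Ace, Treml4 and Nr4a1, read here as markers of patrolling Ly6C-low monocytes, were picked from the 15 after their values had been seen. Of the 15, 12 had lower and 3 higher estimates in Δβ SP, with Ly6c2 among the higher ones. The differences of Spn and F13a1, given above, were smaller than those of the picked genes. Ace, an angiotensin-converting enzyme, was at 10170, 2517 and 398 normalized counts in the SP of WT and 625, 157 and 215 in that of Δβ. The BM values were 231, 112 and 142 for WT and 526, 147 and 32.1 for Δβ. Treml4 was at 1905, 561 and 159 in WT SP and at 26.9 to 132 in the other libraries. Nr4a1, the transcription factor on which these monocytes depend, was at 10522, 4801 and 507 in WT SP and at 197 to 845 elsewhere. All 3 were highest in WT SP replicate 1 and second highest in WT SP replicate 2, the libraries that led for Cx3cr1. Ly6c2, the marker of classical monocytes, was at 4390 and 6084 in these libraries, the lowest and the third lowest of its 12 values. The SP genotype difference was -2.97 for Ace (SE 1.16, limma adjusted p = 0.288), -2.84 for Treml4 (SE 0.79, adjusted p = 0.218) and -2.60 for Nr4a1 (SE 0.93, adjusted p = 0.270). DESeq2 called all 3, beside 3.99% of all genes. Without WT SP replicate 1 the differences were -1.85, -1.96 and -1.68 in that order, and without replicate 2 they were -2.86, -2.84 and -2.25, none of them called by limma. Without replicate 3 they were -4.19, -3.74 and -3.87, all called (adjusted p = 0.0255, 0.0118 and 0.00869), beside 11.7% of all genes called lower. The part of monocyte-type transcripts in the Cx3cr1 result was not tested, and in bulk libraries a different share of cells of a type and a different amount of RNA per cell cannot be told apart.

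**Figure D5:**
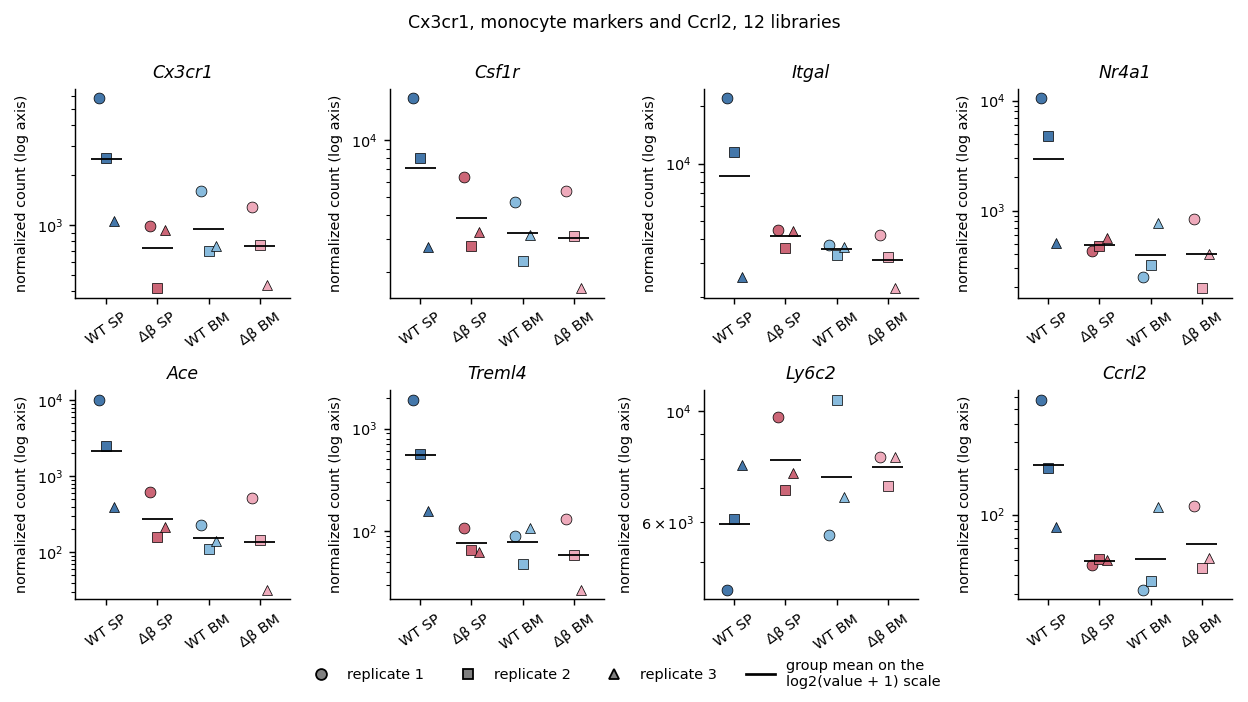
Normalized counts of Cx3cr1, monocyte markers and the receptor-like gene Ccrl2 in the 12 libraries on log axes, with shapes for replicates and a bar at the group mean on the log2(value + 1) scale. WT SP replicate 1 is the highest library for Cx3cr1 (5801), Nr4a1 (10522), Ace (10170), Treml4 (1905) and Ccrl2 (574), and the lowest for Ly6c2 (4390).

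Cx3cl1, the ligand of Cx3cr1, did not reach 3 reads in 3 libraries. Lists of markers of other cell types, some of which the NSG host keeps, held both genes with small values and genes with high ones. Of 14 macrophage markers 6 were tested, and the complement genes C1qa, C1qb and C1qc had at most 14.8, 30.8 and 5.70 normalized counts, all in WT SP replicate 1, and at most 4.27 in the other libraries. The tested macrophage markers had a median of -0.53 in SP, with 4 of 6 lower, and Hmox1, which degrades heme, was at 3925, 1402 and 314 in WT SP against 299.9, 167 and 227 in Δβ SP. The Hmox1 difference in SP was -2.41 (SE 0.72, limma adjusted p = 0.223), and it was -1.56 without WT SP replicate 1 and -2.30 without replicate 2. Without replicate 3 it was -3.38, and limma called it (adjusted p = 0.00768), beside 11.7% of all genes called lower. The macrophage sum ran from 4164 to 9588 in WT SP and from 3808 to 5311 in Δβ SP, with overlap. In BM it ran from 7160 to 9627 in WT and from 4877 to 6472 in Δβ, without overlap, and Vcam1 made up a large part of it in WT. Of the 6 tested markers 4 were lower and 2 higher in Δβ BM, with a median of -0.61, and limma called none. The separation of the sum is thus not one of the list as a whole. Vcam1, an adhesion molecule, was at 4730, 5511 and 2910 in WT BM and 699, 1291 and 946 in WT SP, against 1684, 2131 and 1244 in Δβ BM and 1157, 2409 and 760 in Δβ SP. Its WT organ difference was -2.16 (SE 0.40, limma adjusted p = 0.357). DESeq2 called Vcam1 for organ in WT, beside 0.969% of all genes, and Vcam1 and the iron exporter Slc40a1, both lower in SP, for organ over both genotypes, beside 0.323%. Erythroid and platelet markers summed to at most 82.9 normalized counts, with Hba-a1 and Hbb-bs listed at 0. The treatment of reads shared between similar genes is not given, so a 0 for a globin gene does not show that its transcript was absent. Lymphocyte and NK markers summed to 320 to 1218, the highest in WT SP replicate 3, where Nkg7, a granule protein of cytotoxic cells, reached 828. Stromal and endothelial markers ran from 1162 to 1227 in WT SP and from 1584 to 2550 in Δβ SP, without overlap, with Pecam1 making up most of them at 1046 to 1184 and 1404 to 2517. Of the 10 genes of this list 2 were tested, 1 higher and 1 lower in Δβ SP, and 3 stayed under 3 reads in every library. This sum thus describes Pecam1 rather than the list. Limma called none of the tested genes of these 4 lists in SP, with 2, 0, 0 and 1 at unadjusted p under 0.05 in that order. edgeR called 0 and DESeq2 2, both of them macrophage markers, beside 3.99% of all genes. The part of these transcripts in the receptor values was not tested.

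Most other chemokine receptors were hardly detected in these blasts. Of 19 in the table, 10 reached 3 reads in at least 3 libraries, 4 stayed under 3 reads everywhere, and Ccrl2 was among those with a mean of at least 10. Cxcr1, a further receptor of the Cxcr2 ligand family, is listed at 0. Ccrl2, an atypical receptor that binds chemerin, was at 574, 203 and 82.2 normalized counts in WT and 46.5, 50.4 and 50.2 in Δβ from SP. From BM it was at 31.8, 36.0 and 113 in WT and 114, 44.4 and 51.8 in Δβ. All Δβ SP values were below all WT SP values, as for Cx3cr1 and 9.37% of tested genes. The difference was -2.10 (SE 0.67, limma adjusted p = 0.235), and it was called by DESeq2, beside 3.99% of all genes. Without WT SP replicates 1 and 2 it was -1.38 and -2.13, not called by limma. Without replicate 3 it was -2.78 (limma adjusted p = 0.0185), beside 11.7% of all genes called lower. Cxcr3 and Cxcr6, receptors best known from T and NK cells, were highest in Δβ BM replicate 1, at 42.4 and 41.3, and did not pass 15.5 elsewhere. The T cell genes Cd3d, Cd3e and Cd3g were also highest in that library, at 63.1, 48.9 and 72.8, and next in Δβ SP replicate 1 for Cd3e and Cd3g (17.1 and 20.9), with at most 11.1 in any other value of the 3. Their part in the Cxcr3 and Cxcr6 values was not tested.

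The signalling genes downstream of the receptors were expressed in all groups. The table lists 27 of them, of which 25 were tested, and 24 of the 25 were lower in Δβ SP than in WT SP, with a median of -0.40 beside -0.01 over all tested genes. Limma called none, with 11 at unadjusted p under 0.05 beside 1708 of the 11476 tested genes. edgeR called 0 and DESeq2 5, all lower, beside 3.99% of all genes. Gnai2, the main Gαi subunit of leukocytes, was at 18536, 18034 and 13812 normalized counts in WT SP and 13578, 11596 and 12728 in Δβ SP, where WT SP replicate 3 was close to the highest Δβ SP library. The receptor kinase GRK2, listed as Adrbk1, differed by -0.37 (SE 0.14, adjusted p = 0.293), Cdc42 by -0.38 (SE 0.19) and Rac2 by -0.32 (SE 0.17). In BM 19 of the 25 were lower in Δβ, with a median of -0.12, and in WT 22 of 25 were higher in SP than in BM, with a median of 0.24. With quantile normalization these counts were 22 lower in Δβ SP, 17 lower in Δβ BM and 17 higher in WT SP, with medians of -0.21, -0.087 and 0.097. Without WT SP replicates 1, 2 and 3 in turn, 23, 23 and 25 were lower in Δβ SP, with medians of -0.33, -0.34 and -0.54, and 21, 20 and 24 were higher in WT SP than in WT BM, with medians of 0.11, 0.14 and 0.41. The summed level ran from 98948 to 138419 in WT SP and from 84484 to 98363 in Δβ SP, without overlap. Limma called 15 of the 25 lower in Δβ SP without WT SP replicate 3, where 11.7% of all genes were called lower, and 0 without replicate 1 or replicate 2.

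Of 13 tested receptors for other chemoattractants and for lymphoid egress signals, 10 had lower estimates in Δβ SP, with a median of -0.73. Limma called none, with 2 at unadjusted p under 0.05 beside 1708 of the 11476 tested genes. edgeR called 0 and DESeq2 2, Cmklr1 and Ltb4r1, beside 3.99% of all genes. Ltb4r1, the receptor for leukotriene B4, was at 4588, 3836 and 2923 normalized counts in WT SP and 1783, 1746 and 2290 in Δβ SP. All Δβ SP values of Ltb4r1 were the lower ones, as in 9.37% of tested genes, with a difference of -0.95 (SE 0.21, limma adjusted p = 0.162). Fpr2, a formyl peptide receptor, was at 2408, 2263 and 240.5 in WT SP and 318, 523 and 313 in Δβ SP, a difference of -1.55 (SE 0.91), which was -0.98, -1.03 and -2.64 without WT SP replicates 1, 2 and 3. S1pr4, a sphingosine phosphate receptor of blood cells, differed by -0.67 (SE 0.31) and Ptafr, the receptor for platelet-activating factor, by -0.73 (SE 0.46). Without WT SP replicates 1 and 2 the median of the list was -0.55 and -0.50, with 0 called by limma. Without replicate 3 it was -1.12, with 7 called lower, among them Ltb4r1, Fpr2, S1pr4 and Ptafr, beside 11.7% of all genes. Of 12 MLL-AF9 blast markers 5 were lower and 7 higher in Δβ SP, with a median of 0.12. Limma called none, with 4 at unadjusted p under 0.05 beside 1708 of the 11476 tested genes. edgeR called 0 and DESeq2 2, beside 3.99% of all genes. The median was -0.21, 0.02 and 0.19 without WT SP replicates 1, 2 and 3, and limma called 0, 0 and 5. The 5 were 3 lower and 2 higher, in a fit that called 1884 of the 11476 tested genes. The blast marker sum overlapped between the SP groups, but in BM it ran from 63847 to 84688 in Δβ and from 49451 to 52167 in WT, and in WT SP from 62626.5 to 83387, above WT BM. Gene by gene, 6 of the 12 were higher and 6 lower in Δβ BM than in WT BM, with a median of 0.001. Between WT SP and WT BM 7 were higher and 5 lower in SP, with a median of 0.06. By these gene counts, neither separation is one of the list as a whole. Mpo made up a large part of the sum in Δβ BM, but its values overlapped between WT SP and WT BM. Mpo, the primary granule peroxidase of immature myeloid cells, was at 5947, 5256 and 40587 in WT SP and 53210, 25775 and 30744 in Δβ SP. In BM it was at 14555, 8288 and 5172 in WT and 41895, 27630 and 24214 in Δβ, a difference of 1.83 (SE 0.69, limma adjusted p = 0.99997). These BM groups did not overlap, as in 7.63% of tested genes in either direction. WT SP replicate 3, the library in which Cxcr2, Cxcr4 and Ccr1 were lowest of all 12, thus carried an Mpo level in the range of Δβ SP.

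The 5 receptors were also compared with each other across libraries. Over the 12 libraries the log2 values of Cxcr4 and Ccr1 correlated at r = 0.77, and those of Ccr2 and Cx3cr1 at 0.71. After subtraction of the group means, Ccr2 and Cx3cr1 reached 0.89, and the lowest of the 10 pairs was Ccr1 and Ccr2 at 0.45. All 10 correlations were positive. They are given as a description over 12 libraries that share processing, without a test.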

How the data were processed

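Poly-A RNA libraries of sorted Venus-positive AML blasts were sequenced by the authors. The submitters' processing notes name FastQC, STAR, featureCounts, DESeq2 and the builds GRCm38 and mm10. Aligner settings, strandedness and the treatment of shared reads are not given in the sources used here. The authors deposited 1 table whose signal values are gene counts divided by a size factor per library. In every library 100% of values were whole multiples of 1 step (0.775 to 1.17), within a tolerance of 1e-06 for a value equal to a whole multiple, and this gave back whole reads for edgeR and DESeq2. Another 6 columns that match no labelled sample were not used. Libraries were grouped by their titles.

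Computed here: limma 3.58.1 with trended variance (R 4.3.3) on log2(normalized count + 1), a pseudocount of 1, for 11476 genes with a mean of at least 10, with 4 group means. The genotype over both organs was compared on means of the SP and BM log2 values of 1 number, 3 against 3, since libraries of 1 number may share an animal. No source says what a number marks. Deviations from the group means of same-numbered Δβ SP and Δβ BM libraries correlated at 0.608 to 0.664 across genes, so the numbers pair these 2 groups, and at -0.237 to 0.202 in the other comparisons, where they do not. The WT means over both organs thus join libraries that the data do not pair. The p-values over both organs therefore depend on the numbering of the WT libraries. Benjamini-Hochberg adjusted p under 0.05 made a call. edgeR 4.0.16 and DESeq2 1.42.0, other pseudocounts, filters and scalings, a replicate block and leaving out each library were the alternatives. A gene with under 3 reads in a library was not read as expressed there. An exact permutation test of 3 against 3 cannot go below p = 0.1 and was not used. The fits were run on simulated counts of independent libraries with 1 spread setting for all genes. That run thus did not cover the wider spread of WT SP or the pairing of the Δβ libraries. Lengths came from GENCODE transcripts and promoters from RefSeq.

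The members and lists were chosen with earlier results of these data known. Named genes are the 5 receptors, the other receptors and the ligands with at least 3 reads in at least 3 libraries, up to 4 tested genes of highest mean from each other list, and the 3 genes most correlated with each receptor. Of these, 1 gene is not reported here. Genes outside this rule were chosen after their values were seen: Ace, Treml4, Nr4a1, Hoxa9, Meis1, Stat3, the complement, globin and Cd3 genes, Cxcr1, Ackr3, and the ligands listed as low or at 0. The DESeq2 calls named by symbol in other lists are Padi4, Retnlg and Cmklr1.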

Additional observations from a re-analysis of the deposited data

How the results depend on the processing

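Of the receptor values, 1 call changed with all libraries in use: DESeq2 called Cx3cr1 in SP (-1.99). Genes called in SP numbered 12, and 1 with a pseudocount of 0.25, 5 without the filter, 2 with a minimum mean of 50, 3 with TMM (1 higher, 2 lower, beside 6 and 6), 3 without the variance trend, 4 with edgeR, 457 with DESeq2 and 2 with only the compared groups. With quantile normalization they numbered 16 (9 higher, 7 lower). In BM the 8 genes became 5 without the trend, 37 with DESeq2 and 3 with only the compared groups. Over both organs the 17 became 11 without the trend, 422 with DESeq2 and 48 with all 12 libraries as separate units, and the share of higher calls moved from 10 of 17 to 10 of 14 with TMM and 9 of 12 with quantile normalization. DESeq2 called 111 genes for organ in WT, 2 for organ in Δβ, 37 for organ over both genotypes and 3 for the difference between organs, where limma called 0. Without the filter 1 gene, Pou2af1, was called for organ over both genotypes. No scaling moved the median of all genes by over 0.1.

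Reversed signs with all libraries were small values. For genotype in SP, Cxcr4 was 0.055 with TMM and 0.18 with quantile normalization. For genotype in BM, Ccr2 was 0.00053 with quantile normalization, 0.21 with edgeR and 0.20 with DESeq2. For genotype over both organs, Cxcr2 was 0.013 with TMM and 0.021 with quantile normalization, Cxcr4 0.0045 with quantile normalization, and Ccr2 0.017 with edgeR and 0.013 with DESeq2. For the organ in WT, Ccr1 was 0.12 with edgeR and 0.14 with DESeq2. For the organ in Δβ, Ccr2 was -0.10 with edgeR and -0.093 with DESeq2. For organ over both genotypes, Ccr1 was 0.041 with edgeR and 0.050 with DESeq2, and for the difference between organs Ccr1 was 0.067 with quantile normalization. The cause was not tested.

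Leaving out 1 library in turn gave 1 to 1884 genes for genotype in SP, 1 to 13 in BM, 0 to 598 for organ in WT and 0 to 5 for organ over both genotypes. Leaving out both libraries of 1 number in a genotype gave 2 to 27 for genotype over both organs. The 1884, 598 and 5 came without WT SP replicate 3, and genotype in SP fell to 7 or fewer genes without WT SP replicate 2, any Δβ SP library or any BM library. Receptors called in SP ranged from 0 to 1, the call being Cx3cr1 without WT SP replicate 3. The sign of 23 receptor values turned in at least 1 of these fits, with the ranges given here. For genotype in SP they were Cxcr2 (-1.80 to 0.036), Cxcr4 (-0.27 to 0.19), Ccr1 (-0.96 to 0.033) and Ccr2 (-0.59 to 0.23). For genotype in BM they were Ccr2 (-0.57 to 0.62) and Cx3cr1 (-0.71 to 0.061). For organ in WT they were Cxcr4 (-0.34 to 0.12), Ccr1 (-0.38 to 0.61) and Ccr2 (-0.18 to 0.64). For organ in Δβ they were Cxcr4 (-0.089 to 0.18), Ccr1 (-0.27 to 0.084), Ccr2 (-0.57 to 0.61) and Cx3cr1 (-0.44 to 0.34). For organ over both genotypes they were Cxcr2 (-0.23 to 0.72), Cxcr4 (-0.15 to 0.084), Ccr1 (-0.21 to 0.29) and Ccr2 (-0.18 to 0.41). For the difference between organs they were Cxcr4 (-0.079 to 0.38), Ccr1 (-0.66 to 0.33) and Ccr2 (-0.79 to 0.40). For genotype over both organs they were Cxcr2 (-0.37 to 0.46), Cxcr4 (-0.27 to 0.083) and Ccr2 (-0.55 to 0.26).

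With the replicate number as a replicate block, Cx3cr1 in SP had an adjusted p of 0.157, no receptor was called in any of the 7 comparisons, and genes called were 2 for genotype in SP, 5 in BM and 55 over both organs. For organ in Δβ, where the numbers pair the libraries, the block called 0 genes, as did the fit without it. In the other comparisons the libraries share only a number, except that genotype over both organs rests on means by number. Counting error is small for the receptors, the lowest value being 70 reads. With 3 libraries per group, differences of the size of the Cxcr2 intervals could not be resolved.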
